A study of Homo sapiens with 18 samples.

Results

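JUN, JUNB, JUND, FOS, FOSB, FOSL1, FOSL2, ATF3 and MAF were followed in RNA-seq of 3 human melanoma lines overexpressing MAFG or GFP. These 9 genes were taken by symbol from the 58870 genes of the count table. All 9 were measured, and all 9 passed the filter on low counts in every comparison. Within A375, MAF passed it only through the MAFG libraries, since it was nearly absent with GFP. They encode basic leucine zipper (bZIP) transcription factors, of which 3 are JUN genes, 4 are FOS genes, and ATF3 and MAF stand alone.

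A bZIP factor binds DNA as a dimer, with a basic region that contacts the DNA and a leucine zipper that holds the partners together. JUN and FOS proteins pair to form AP-1, which binds the TRE site TGANTCA and, in some pairings, the CRE site TGACGTCA. Most of these genes are immediate early genes, transcribed within minutes of growth factor or stress signalling. Large MAF proteins such as MAF carry an activation domain, whereas the small MAFs (sMAFs) MAFF, MAFG and MAFK lack one. Both kinds bind extended sites whose half-sites read TGCTGA. The core of such a site resembles the TRE or CRE, so MAF and AP-1 proteins can share sites. MAF proteins can also pair with some FOS and JUN proteins. In melanoma, JUN and FOSL1 are known for high levels in dedifferentiated cells, and the study compared Melanocytic with dedifferentiated lines.

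WM164 and SKMel28 are melanoma lines in the Melanocytic state (high MITF, low AXL), and A375 is a melanoma line in a dedifferentiated state. Each line was transduced with a lentivirus that drives a Myc-DDK-tagged MAFG cDNA, or GFP as the control, from the EF1α promoter, and selected with blasticidin. The cells were therefore selected pools and not clones, and all were grown in RPMI with 5% FBS without a further treatment. Each of the 6 conditions had 3 libraries, for 18 libraries in all. Nothing in the sources says that the libraries of a condition came from separate cultures, so p-values measure the spread between libraries, which may be technical.

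The sum of counts per library ran from 20122172 to 39025042. In the A375 MAFG group, replicate 1 stood apart from replicates 2 and 3, with a mean chi-square per gene of 68.7 and 96.7 against 5.90 to 30.2 for the other 16 pairs of replicates. Leaving it out raised the count of all genes called in A375 from 133 to 393. MAFG mRNA itself was higher in each MAFG library than in each GFP library of its line. The log2 fold change of MAFG was 1.04 in WM164 (adjusted p = 6.37e-08) and 0.64 in SKMel28 (adjusted p = 1.28e-04), and it was 0.80 in A375 without passing the test (adjusted p = 0.0655). Of 7 markers of the melanocyte lineage, all 7 were detected above 3 counts in WM164 and SKMel28 and 4 in A375, where MLANA and TYR were at 0 in all libraries. The summed level of 4 markers each of keratinocytes and leukocytes stayed at or below 1.18 CPM in every library, and that of 4 endothelial markers at or below 2.33 CPM.

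Promoter sequences are shown for MAF and JUN, the genes that were higher with MAFG in both Melanocytic lines, and for JUND, which passed the test in no line. They are RefSeq sequences from 250 bases before to 50 bases after the start site, written 5′ to 3′ on the strand of the gene, with matches to searched motifs in capitals. The MAF promoter lies at chr16:79600688-79600987 (minus strand), the JUN promoter at chr1:58783998-58784297 (minus strand) and the JUND promoter at chr19:18281573-18281872 (minus strand) of GRCh38.p14.
MAF: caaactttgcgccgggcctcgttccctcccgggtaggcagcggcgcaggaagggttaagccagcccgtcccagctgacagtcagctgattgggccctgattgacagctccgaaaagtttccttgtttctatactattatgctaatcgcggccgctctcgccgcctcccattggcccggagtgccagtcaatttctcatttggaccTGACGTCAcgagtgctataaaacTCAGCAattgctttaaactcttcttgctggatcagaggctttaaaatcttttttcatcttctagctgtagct
JUN: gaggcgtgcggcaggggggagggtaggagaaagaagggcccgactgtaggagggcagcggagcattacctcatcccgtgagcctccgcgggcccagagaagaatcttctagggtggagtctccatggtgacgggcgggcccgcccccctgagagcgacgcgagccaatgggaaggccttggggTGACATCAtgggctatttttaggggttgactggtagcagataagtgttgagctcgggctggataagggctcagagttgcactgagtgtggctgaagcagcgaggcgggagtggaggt
JUND: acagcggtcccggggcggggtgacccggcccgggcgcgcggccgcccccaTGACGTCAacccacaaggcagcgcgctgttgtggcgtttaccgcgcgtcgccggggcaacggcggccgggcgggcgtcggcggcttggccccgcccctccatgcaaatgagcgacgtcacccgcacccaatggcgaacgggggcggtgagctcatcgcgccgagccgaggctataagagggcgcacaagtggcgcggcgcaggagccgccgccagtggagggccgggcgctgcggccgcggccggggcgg

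The motifs were searched on both strands of these promoters and of all 35116 promoters of the RefSeq table. They were the TRE TGANTCA, the CRE TGACGTCA, its variant TGACATCA, the MAF half-site TGCTGA and the E-boxes CATGTG and CACGTG that MITF can bind. The CArG box of serum response factor was searched too. None of these motifs overlapped another in a promoter of a member. The MAF promoter held a CRE from −45 to −38 and a MAF half-site from −22 to −17, read as TCAGCA on the printed strand. The CRE was present in 1.85% of all promoters and the MAF half-site in 17.3%. The JUN promoter held TGACATCA from −67 to −60, a sequence found in 2.61% of promoters, and the JUND promoter held a CRE from −200 to −193. In FOSL2, a TRE (7.71% of promoters) lay from 5 to 11 and a CATGTG E-box (11.1%) from −51 to −46. ATF3 has a pair of RefSeq promoters. The first held TGACATCA from −123 to −116 and the second a MAF half-site from −4 to 2. The promoters of JUNB, FOS and FOSB held none of these letters. Only exact matches were searched, so a variant of a site would have been missed. CACGTG (7.26%) and the CArG box (1.29%) were found in none of the members' promoters searched. Sequence outside these promoters was not searched, so a site farther from the start site would have been missed. FOSL1 was named only, since the table had 8 of the 9 members.

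To determine how MAFG overexpression moved each factor, MAFG was compared with GFP within each line. The levels are in CPM, counts scaled to the normalized library size of the line, and a gene was called where the adjusted p was at most 0.05 in edgeR's quasi-likelihood test, adjusted over all tested genes. In WM164, JUN, JUNB, FOSB, FOSL1 and MAF rose and none of the 9 fell, whereas in SKMel28 JUN and MAF rose and JUNB, FOS, FOSB, FOSL1 and FOSL2 fell. In A375, MAF rose and the other 8 did not pass the test, the smallest of their adjusted p being 0.918. At an unadjusted p under 0.05, still none of the 9 fell in WM164 and none of the other 8 in A375 was added, and DESeq2 likewise called 1 member in A375. In WM164, 16.2% of the 15919 tested genes were called higher and 15.6% lower. In SKMel28, these shares were 14.6% and 15.3% of 15523 genes, and in A375 they were 0.78% and 0.0634% of 15779 genes. Over the 9 genes, the median log2 fold change was 0.58 for WM164, −0.27 for SKMel28 and 0.06 for A375, beside medians over all tested genes within 0.01 of 0. Requiring in addition an absolute log2 fold change above 1, the threshold of the study, left only JUN in WM164 (6.94% of all genes), none in SKMel28 (4.74%) and MAF in A375 (0.665%).

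**Figure D1:**
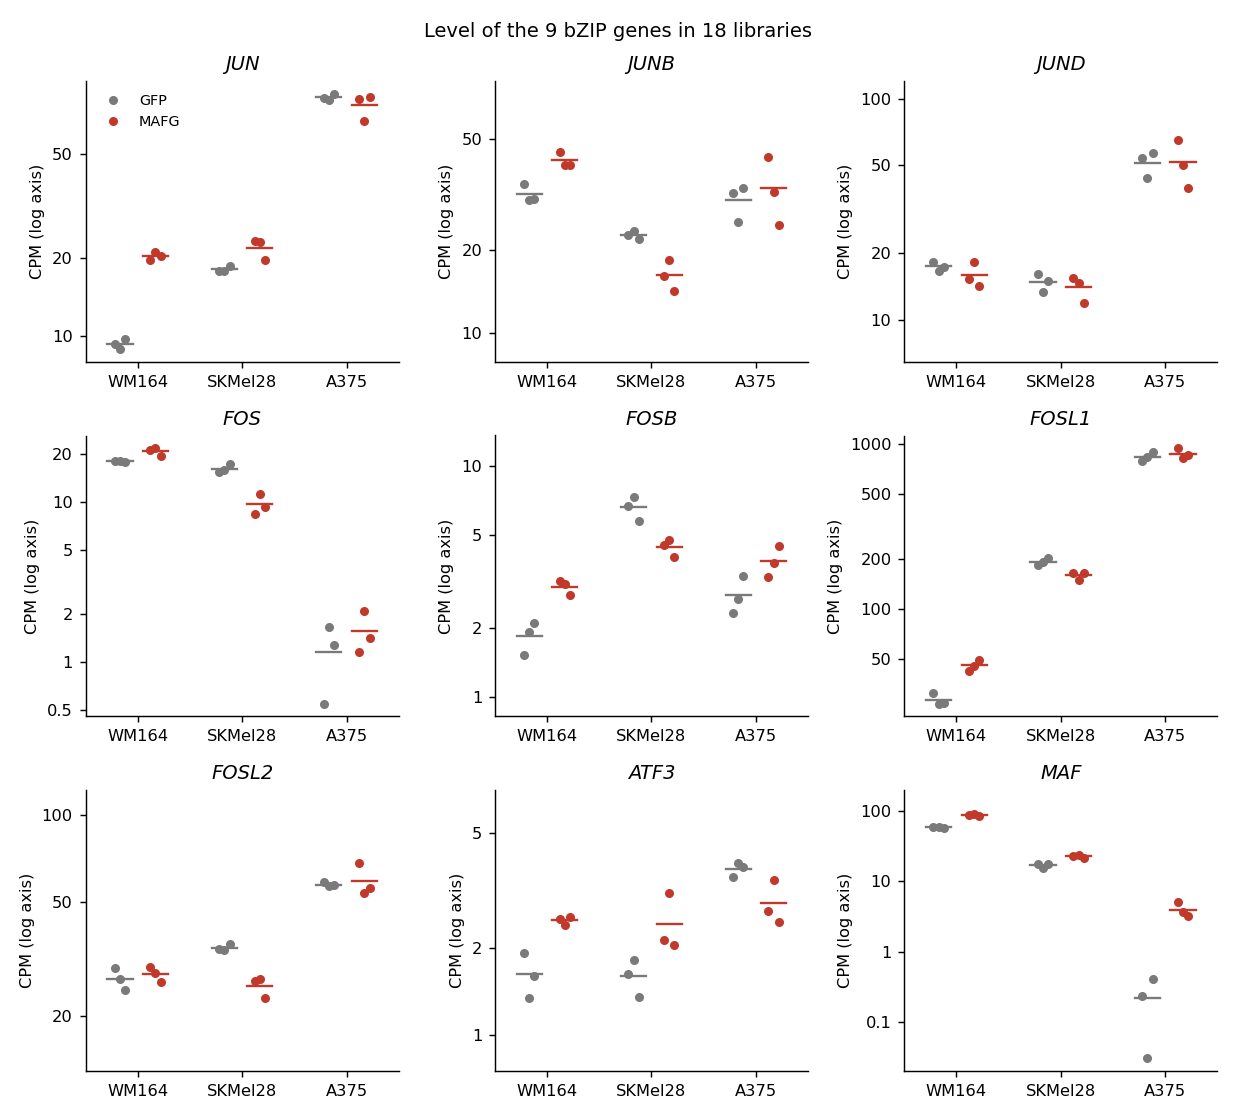
Level of each gene in CPM (log axis) in each library, with GFP libraries in grey and MAFG libraries in red; lines mark the means of 3 libraries. JUN rises above its GFP level by over 2-fold in WM164, MAF differs most between the lines under both vectors, and its red and grey points in A375 are the farthest apart within a line.

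**Figure D2:**
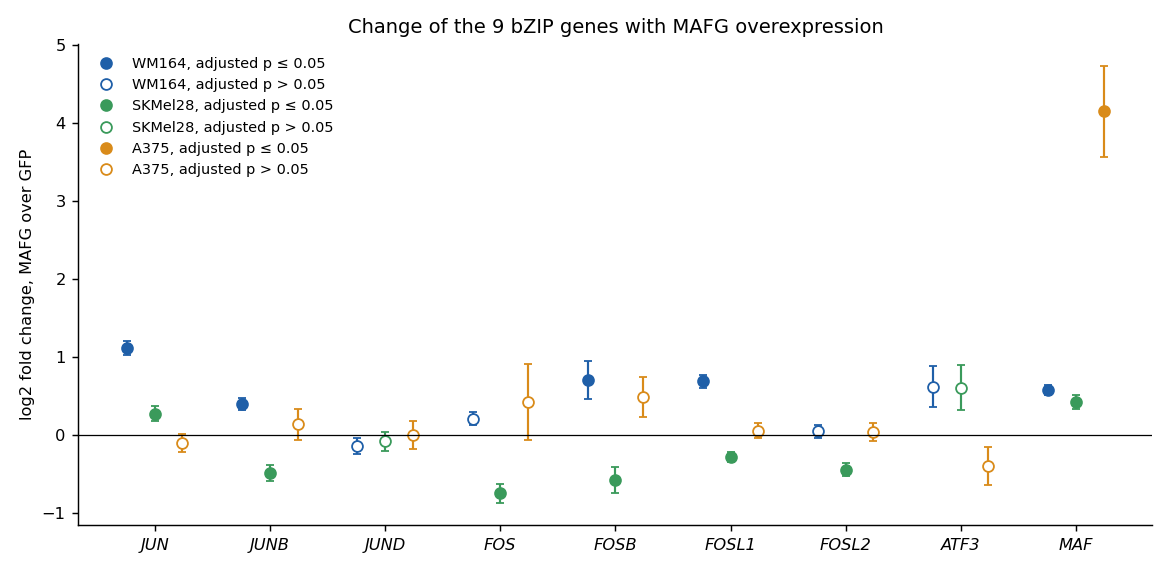
Log2 fold change of each gene with MAFG overexpression in each line, with bars of 1 standard error on each side; filled points passed the test and open points did not. JUNB, FOS, FOSB, FOSL1 and FOSL2 lie above 0 in WM164 and below 0 in SKMel28, with open points for FOS and FOSL2 in WM164. MAF lies above 0 in all 3 lines.

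JUN (ENSG00000177606.6, chromosome 1 from 58776845 to 58784048 of GRCh38, a gene of 1 exon on the minus strand) encodes c-Jun, the partner that can form AP-1 with itself or with any FOS protein. In WM164, its level was 9.33, 8.91 and 9.78 CPM in the GFP libraries and 19.6, 21.0 and 20.2 CPM in the MAFG libraries. Every MAFG library was above every GFP library, and the fold change was 2.17 (log2 1.12, standard error 0.09, adjusted p = 4.65e-08). This was the only member past the study's fold threshold in a Melanocytic line. In SKMel28, JUN was at 17.7, 17.8 and 18.6 CPM with GFP and at 23.1, 22.9 and 19.6 CPM with MAFG. The groups did not overlap, but the difference was small (log2 0.28, standard error 0.09, adjusted p = 0.0340), and it did not pass with DESeq2 (adjusted p = 0.0631), with all 18 libraries in 1 model (adjusted p = 0.0556), in any fit that left out 1 library other than MAFG replicate 3 (adjusted p up to 0.124) or on the TPM values (log2 0.08, adjusted p = 0.669 with a pseudocount of 1). In A375, the values were 81.3, 80.0 and 84.6 CPM with GFP and 80.7, 66.5 and 82.3 CPM with MAFG, which overlapped. With CPM normalized over all 18 libraries, the JUN range of WM164 cells overexpressing MAFG overlapped that of SKMel28 cells overexpressing MAFG and lay below every A375 library.

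JUNB and JUND are the other JUN proteins, JunB being known as a weaker activator that can oppose c-Jun and JunD as the form found in resting cells. JUNB (ENSG00000171223.6, chromosome 19 from 12791486 to 12793315, 1 exon) was at 34.4, 30.2 and 30.5 CPM in WM164 with GFP and at 45.1, 40.5 and 40.3 CPM with MAFG. The MAFG libraries were all higher (log2 0.40, standard error 0.08, adjusted p = 6.42e-04). In SKMel28, JUNB went the other way, from 22.5, 23.4 and 21.7 CPM to 16.1, 18.3 and 14.1 CPM, again without overlap (log2 −0.48, standard error 0.10, adjusted p = 0.00199). When all 18 libraries shared an estimate of the spread, neither JUNB change passed (adjusted p = 0.0913 in WM164 and 0.0519 in SKMel28). In A375, JUNB ranged from 25.1 to 33.5 CPM with GFP and from 24.5 to 43.1 CPM with MAFG. JUND (ENSG00000130522.5, chromosome 19 from 18279694 to 18281622, 1 exon) lay between 11.95 and 18.4 CPM in all 12 libraries of the Melanocytic lines and between 39.7 and 64.9 CPM in the 6 of A375. Its MAFG and GFP libraries overlapped in each line. JUNB lies within the span of HOOK2, a gene on the opposite strand. The use of strand in counting is not stated and the exons of the pair were not compared. Whether their reads were mixed was not tested.

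FOS proteins cannot pair with themselves and need a JUN or other bZIP partner. FOS (ENSG00000170345.10, chromosome 14 from 75278826 to 75282230, 4 exons) encodes c-Fos, the member induced fastest by growth factors. In SKMel28, it was at 15.4, 15.9 and 17.2 CPM with GFP and at 8.40, 11.3 and 9.37 CPM with MAFG. All MAFG libraries were lower, and FOS fell by 0.74 on the log2 scale (standard error 0.12, adjusted p = 2.82e-04), the largest fall among the members. In WM164, FOS was at 18.1, 18.1 and 17.7 CPM with GFP and at 21.3, 21.7 and 19.5 CPM with MAFG, which did not overlap and did not pass the test (log2 0.21, standard error 0.08, adjusted p = 0.0655). In A375 it was near the lower end of what these libraries count, with 19, 55 and 41 counts in the GFP libraries and 43, 70 and 54 counts in the MAFG libraries.

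FOSB (ENSG00000125740.14, chromosome 19 from 45467995 to 45475179, 4 exons) encodes a close relative of c-Fos. It had 45, 61 and 56 counts in WM164 with GFP and 96, 88 and 95 counts with MAFG, and rose (log2 0.71, standard error 0.24, adjusted p = 0.0333). In SKMel28, it had 210, 157 and 175 counts with GFP and 142, 139 and 113 counts with MAFG, and fell (log2 −0.57, standard error 0.17, adjusted p = 0.0168). The groups did not overlap in CPM in either line. These calls were the least stable of the FOS genes, since the WM164 call was lost in 5 of the 6 fits that left a library out (all but WM164 GFP replicate 3, adjusted p up to 0.104) and the SKMel28 call in 3 of 6 (without GFP replicate 1 or 2 or MAFG replicate 3, adjusted p up to 0.0645). The WM164 call was also lost with DESeq2 (adjusted p = 0.0643), and the SKMel28 call with all 18 libraries in 1 model (adjusted p = 0.0551) and on the TPM values (log2 −0.33, adjusted p = 0.154 with a pseudocount of 1). FOSB lies within the span of ERCC1, on the opposite strand, and whether reads of this pair were mixed was not tested either.

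FOSL1 (ENSG00000175592.8, chromosome 11 from 65892049 to 65900573, minus strand, 4 exons) encodes FRA1, a FOS protein without the strong activation domain of c-Fos that is known for high levels in invasive carcinoma and melanoma cells. In WM164, its level was 30.9, 26.8 and 27.0 CPM with GFP and 42.2, 45.2 and 49.4 CPM with MAFG. Every MAFG library was higher, by 1.62-fold on average (log2 0.69, standard error 0.08, adjusted p = 3.45e-06). In SKMel28, it was 184, 194 and 203 CPM with GFP and 165, 150 and 165 CPM with MAFG, a smaller change downwards without overlap (log2 −0.27, standard error 0.06, adjusted p = 0.00257). In A375, FOSL1 was at 784, 834 and 887 CPM with GFP and at 940, 820 and 854 CPM with MAFG. These A375 values overlapped. FOSL2 (ENSG00000075426.12, chromosome 2 from 28392448 to 28417317, 4 exons) encodes FRA2, its closest relative. It fell in SKMel28, from 34.3, 34.0 and 35.7 CPM to 26.5, 27.0 and 23.2 CPM (log2 −0.44, standard error 0.08, adjusted p = 6.97e-04), but this call was lost on the TPM values (adjusted p = 0.343 with a pseudocount of 1). In WM164 it lay between 24.8 and 29.6 CPM in all 6 libraries. FOSL2 overlaps FOSL2-AS1 on the opposite strand and a noncoding gene on its own strand.

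ATF3 (ENSG00000162772.17, chromosome 1 from 212565334 to 212620777, 4 exons), a stress-induced factor that can pair with JUN proteins or repress as a dimer of itself, was low in every condition, with 39 to 131 counts per library. In WM164 it was at 1.93, 1.34 and 1.61 CPM with GFP and at 2.52, 2.41 and 2.56 CPM with MAFG. In SKMel28 it was at 1.62, 1.82 and 1.36 CPM with GFP and at 2.14, 3.11 and 2.05 CPM with MAFG. The groups did not overlap in either line, with log2 fold changes of 0.62 and 0.61, but their standard errors were 0.26 and 0.29 and neither passed the test (adjusted p = 0.0840 and 0.126). In A375 the MAFG libraries were the lower ones (log2 −0.39, standard error 0.25, adjusted p = 0.980).

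MAF (ENSG00000178573.7, chromosome 16 from 79585843 to 79600737, minus strand, 2 exons) encodes c-MAF, the large MAF of this set. It rose in each of the 3 lines. In WM164, its level was 59.1, 58.9 and 57.4 CPM with GFP and 86.7, 91.5 and 84.5 CPM with MAFG, a rise without overlap (log2 0.58, standard error 0.06, adjusted p = 5.05e-07). In SKMel28, it was 17.9, 15.7 and 17.4 CPM with GFP and 22.9, 23.7 and 21.8 CPM with MAFG. All 3 MAFG libraries of each line were above all 3 GFP libraries, and the rise in SKMel28 was 1.34-fold (log2 0.42, standard error 0.09, adjusted p = 0.00211). The SKMel28 call was lost when all 18 libraries shared an estimate of the spread (adjusted p = 0.0657) and on the TPM values (log2 0.13, adjusted p = 0.486 with a pseudocount of 1).

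In A375, MAF was nearly absent with GFP, with 8, 1 and 13 counts, and was present with MAFG, with 187, 123 and 121 counts. It passed the filter on low counts through the MAFG libraries alone, and a filter of 10 counts in each library removed it. The summed counts were 22 and 431, a ratio of 18.03 after scaling for depth with an exact 95% interval of 11.8 to 29.1 that covers counting error only. In the test, the log2 fold change was 4.14 (standard error 0.58, adjusted p = 0.00837). It ran from 3.62 to 4.87 with a library left out, and without GFP replicate 1 the call was lost (log2 4.18, adjusted p = 0.0522). Without MAFG replicate 1, the library that stood apart, it was 3.93 (adjusted p = 0.00526). In TPM the same libraries were at 0.18, 0 and 0.24 with GFP and at 0.52, 0.60 and 0.46 with MAFG, so that the direction was the same and the ratio was smaller, and these values were below the filter of the TPM tests. At 3.97 ± 0.98 CPM (SD, n = 3), A375 cells overexpressing MAFG still had less MAF mRNA than any library of the other lines.

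Of the 7 markers of the melanocyte lineage, 3 were tested in A375 and SOX10 alone passed the test beside MAF. SOX10, a regulator of the neural crest and melanocyte lineage, had 266, 300 and 411 counts with GFP and 5630, 3855 and 4208 counts with MAFG (log2 3.68, adjusted p = 2.12e-05). S100B, which marks neural crest derivatives, had 5, 2 and 1 counts with GFP and 19, 36 and 48 counts with MAFG. Its log2 fold change of 3.52 was near that of SOX10 but did not pass the test (adjusted p = 0.0998). The summed level of the 7 lineage markers ran from 39.2 to 46.3 CPM with GFP and from 135.5 to 185 CPM with MAFG, and without SOX10 it was 30.1 to 33.5 CPM and 24.9 to 37.4 CPM, which overlapped. MITF did not pass the test (log2 −0.07, adjusted p = 0.997), and MLANA and TYR, which were at 0 in the GFP libraries, were at 0 in all MAFG libraries too, while DCT had 1 count in 1 MAFG library and PMEL 34 counts in all 3 against 16 with GFP. In WM164, 5 of the 7 lineage markers fell and none rose, led by MLANA (log2 −2.41, adjusted p = 1.40e-15) and DCT (log2 −1.64, adjusted p = 3.06e-12), and their sum went from between 4447 and 4742 CPM to between 2486 and 2617 CPM. In SKMel28, 3 fell, led by PMEL (log2 −0.66, adjusted p = 2.93e-06), and S100B rose (log2 0.58, adjusted p = 5.16e-06). Whether these marker changes have a part in those of the bZIP genes was not tested.

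The responses in WM164 and SKMel28 were compared as differences in a model of all 18 libraries, which tests the size of a difference and not opposite signs. Within the lines, only JUNB, FOSB and FOSL1 were called with opposite signs. JUN rose in both lines, and FOS and FOSL2 were called in SKMel28 alone. For JUN, JUNB, FOS, FOSB, FOSL1 and FOSL2, 6 of the 9 genes, the response to MAFG was higher in WM164 than in SKMel28, where 13.7% of the 18767 genes tested differed in either direction. The differences, on the log2 scale, were 0.97 for FOSL1 (standard error 0.12, adjusted p = 9.42e-06), 0.84 for JUN (standard error 0.14, adjusted p = 2.38e-04), 1.28 for FOSB (standard error 0.29, adjusted p = 0.00470) and 0.88 for JUNB (standard error 0.23, adjusted p = 0.0117). The FOSB difference was smaller and did not pass on the TPM values (0.40 and 0.79 with pseudocounts of 1 and 0.1, adjusted p = 0.244 and 0.317). Those of FOS (0.96, adjusted p = 0.0210) and FOSL2 (0.49, adjusted p = 0.0291) were lost when some of the libraries were left out, with adjusted p up to 0.0631 and 0.0917. For FOS this took 5 of the 12 libraries (WM164 GFP replicate 3, WM164 MAFG replicates 1 and 2, SKMel28 GFP replicate 3 or SKMel28 MAFG replicate 1), and for FOSL2 it took any but WM164 GFP replicate 1, WM164 MAFG replicate 3 and SKMel28 MAFG replicates 1 and 2. FOSL2 also did not pass on the TPM values (adjusted p = 0.182 and 0.180) or without a count filter (adjusted p = 0.0535), nor FOS with a pseudocount of 0.1 (adjusted p = 0.165). The response of MAF differed by 0.16 between these lines (standard error 0.21, adjusted p = 0.719; 0.52 and adjusted p = 0.0381 on the TPM values with a pseudocount of 1), that of ATF3 by 0.01 and that of JUND by −0.06.

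Against A375, the response in WM164 was higher for JUN (1.21, adjusted p = 2.13e-06) and FOSL1 (0.63, adjusted p = 0.00141) and lower for MAF (−3.57, adjusted p = 3.99e-07), 3 of 9 genes beside 9.21% of all genes. The response in SKMel28 was lower than in A375 for FOS (−1.16, adjusted p = 0.0288), FOSB (−1.06, adjusted p = 0.0200), FOSL2 (−0.49, adjusted p = 0.0358) and MAF (−3.73, adjusted p = 3.42e-07), 4 of 9 genes beside 9.51%. Of the latter calls, FOSB was lost without A375 GFP replicate 1, SKMel28 GFP replicate 2 or SKMel28 MAFG replicate 3. FOS was lost without any of these or A375 MAFG replicate 2, SKMel28 GFP replicate 3 or SKMel28 MAFG replicate 1, and FOSL2 without any library of both lines but A375 MAFG replicates 2 and 3 and SKMel28 MAFG replicate 2. Over all such fits, 1 to 5 of the 9 genes were called. On the TPM values, where MAF in A375 is close to 0, the difference for MAF was 0.22 in WM164 against A375 and −0.30 in SKMel28 against A375 (pseudocount of 1), and neither passed. The differences of FOS, FOSB and FOSL2 between SKMel28 and A375 did not pass on the TPM values either (−0.56, −0.45 and −0.15 with a pseudocount of 1, adjusted p = 0.396, 0.323 and 0.774), and FOSB did not without a count filter (adjusted p = 0.0713).

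The lines also differed in these factors without MAFG overexpression. The levels here are from cells overexpressing GFP, as CPM normalized over all 18 libraries, and a gene was called where the adjusted p was at most 0.05 and the absolute log2 difference above 1. A375 was far above WM164 in FOSL1 (752 ± 44.6 against 29.9 ± 2.38 CPM, SD, n = 3, log2 4.65) and in JUN (73.8 ± 1.92 against 9.89 ± 0.45 CPM, log2 2.90). It was far below it in FOS (1.04 ± 0.51 against 19.0 ± 0.23 CPM, log2 −4.19) and in MAF (0.20 ± 0.17 against 61.9 ± 0.98 CPM, log2 −8.26). JUND was also higher in A375 (log2 1.33), which makes 5 of 9 genes called, beside 46.7% of all genes. Against SKMel28, A375 was higher in FOSL1, JUN, JUND and ATF3 (log2 1.89, 1.97, 1.57 and 1.02) and lower in FOS, MAF and FOSB (log2 −4.02, −6.46 and −1.47), 7 of 9 genes beside 43.8%. Between the Melanocytic lines, WM164 had less FOSL1 and FOSB (log2 −2.76 and −1.83) and more MAF (log2 1.80) than SKMel28, 3 of 9 genes beside 28.7%. The adjusted p of each of these differences was at or below 0.00123. On the TPM scale, the MAF difference was smaller, down to −2.98 for A375 against WM164 and −1.78 for A375 against SKMel28. The FOS difference was smaller there too, down to −2.255 against WM164 and −2.376 against SKMel28. ATF3 was called in A375 against WM164 without WM164 GFP replicate 1 or A375 GFP replicate 1. Against SKMel28, the ATF3 call was lost without A375 GFP replicate 2 or SKMel28 GFP replicate 3. On log2(TPM + 1), the differences of ATF3 in A375 against SKMel28 (0.59) and of FOSB in A375 and in WM164 against SKMel28 (both −0.71) were within the fold threshold.

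The order of the 6 conditions differed between genes. For FOSL1, it ran A375 (both vectors overlapping), SKMel28 GFP, SKMel28 MAFG, WM164 MAFG and WM164 GFP, with no overlap between neighbours below A375. For FOS it was nearly the reverse, with WM164 MAFG, WM164 GFP, SKMel28 GFP and SKMel28 MAFG in separate ranges and both A375 conditions overlapping at the bottom. MAF was ordered WM164, SKMel28 and A375, with MAFG above GFP in each and no overlap between any neighbours. JUN was highest in A375, overlapped between SKMel28 MAFG and WM164 MAFG, and was lowest in WM164 GFP. JUNB was highest in WM164 MAFG and lowest in SKMel28 MAFG, and the 4 conditions between them overlapped with their neighbours. JUND and FOSL2 were highest in A375 under both vectors, FOSB was highest in SKMel28 GFP, and ATF3 was highest in A375 GFP.

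Levels can be set against each other between genes only per transcript length, for which the deposited TPM values were used. FOSL1 made up most of the FOS mRNA in each line. In cells overexpressing GFP it was 52.2 ± 1.14% of the summed TPM of the 4 FOS genes in WM164, 88.9 ± 0.56% in SKMel28 and 98.3 ± 0.15% in A375 (SD, n = 3), while FOS was 34.7 ± 0.25%, 6.67 ± 0.36% and 0.21 ± 0.10%. The sum over the FOS genes was 22.1 to 25.3 TPM in WM164, 130 to 142 TPM in SKMel28 and 434 to 484 TPM in A375. The sum over the JUN genes differed less, at 20.7 to 22.6, 26.0 to 29.9 and 56.5 to 74.5 TPM. Among JUN genes, JUN was the smallest share in WM164 GFP cells (7.38 ± 0.59%), with JUNB at 51.1 ± 0.26% and JUND at 41.6 ± 0.35%, and in A375 GFP cells JUND was the largest at 53.9 ± 2.78%.

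With MAFG overexpression, the FOS sum in WM164 was 35.1 to 38.3 TPM and the JUN sum 25.1 to 31.6 TPM, both above their GFP libraries. In SKMel28, the FOS sum was 99.8 to 105 TPM and the JUN sum 16.6 to 22.3 TPM, both below their GFP libraries. In A375, both sums overlapped between MAFG and GFP. The JUN share of the JUN sum was 13.6 ± 1.46% in WM164 and 23.6 ± 0.88% in SKMel28 with MAFG, above the GFP libraries of each line (7.38 ± 0.59% and 16.4 ± 0.80%). In SKMel28, on TPM with a pseudocount of 1, JUN itself was at log2 0.08 (adjusted p = 0.669 in limma), JUNB at −0.60 and JUND at −0.42. JUND was at −0.08 in the counts, so the lower JUN sum and higher JUN share in SKMel28 rest in part on a fall that the counts did not show. The sums were not tested and are given as ranges.

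**Figure D3:**
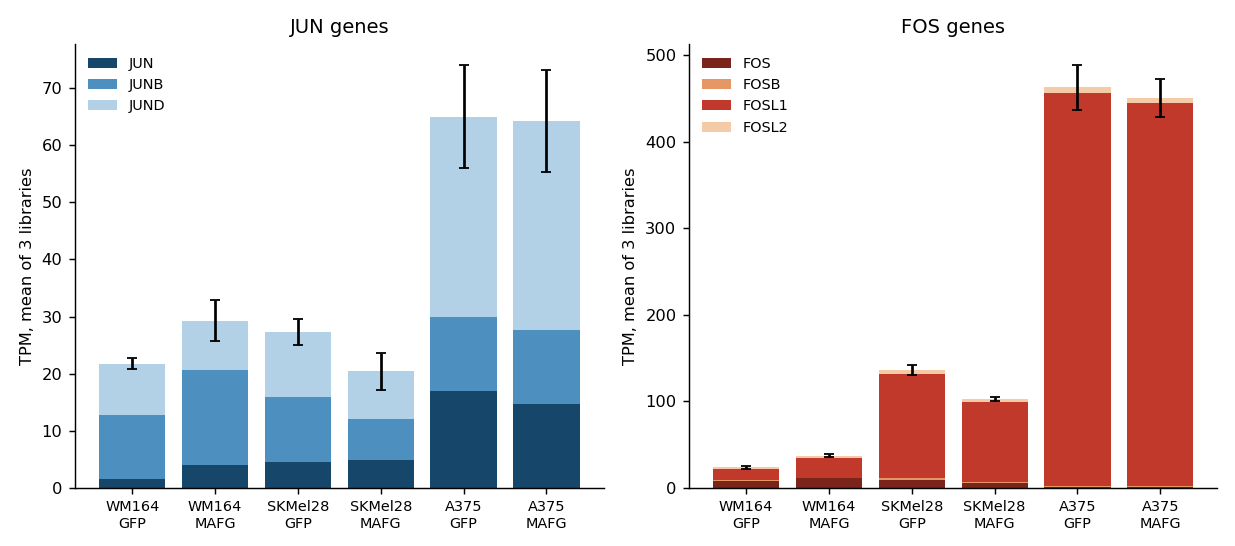
Mean TPM of 3 libraries, stacked over the JUN genes (left) and the FOS genes (right), by condition; error bars are the SD of the summed TPM (n = 3). The FOS sum rises from WM164 over SKMel28 to A375 and consists mostly of FOSL1 in the last of these.

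The wider pathway was described with lists of known genes. Of 20 other immediate early genes, which respond to the same signals as FOS and JUN, 10 rose and 1 fell in WM164, while 1 rose and 10 fell in SKMel28, and 2 rose in A375. The medians of their log2 fold changes were 0.39, −0.31 and 0.01. In WM164, NR4A2, an orphan nuclear receptor, and IER3, a survival factor, led (log2 1.40 and 1.34, adjusted p = 1.72e-10 and 4.24e-12). In SKMel28, EGR2 and EGR3, zinc finger factors, led in opposite directions (log2 −2.83 and 1.03, adjusted p = 4.73e-06 and 2.93e-06). In A375, EGR3 rose from 8, 6 and 2 counts to 199, 131 and 152 counts (log2 4.77, adjusted p = 4.73e-04), and NR4A2 rose (log2 1.46, adjusted p = 0.0310). Of the 6 genes of this list called in both Melanocytic lines, 4 were higher in WM164 and lower in SKMel28, as were 3 of the 5 members called in both. Of all 1880 genes called in both lines, 309 were higher in WM164 and lower in SKMel28. Another 336 went the reverse way, and the 2 directions together made 34.3%.

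Known AP-1 targets were followed with a list chosen when earlier results of these data were known. It holds AXL, which the study reported as induced by MAFG. Of the 22 target genes analysed, 12 were tested in WM164, where 9 rose and none fell, and 16 in SKMel28, where 9 rose and 3 fell. Their medians were 0.56 and 0.40 on the log2 scale. The largest changes were in IL11, a cytokine (log2 3.67 in WM164, adjusted p = 5.44e-04, and 2.12 in SKMel28, adjusted p = 0.0203), and AXL, a receptor tyrosine kinase of dedifferentiated melanoma (log2 3.13, adjusted p = 1.35e-11, and 5.25, adjusted p = 5.28e-12). IL11 was at 0 to 5 counts in the GFP libraries of both lines. Of 7 targets called in both lines, 6 rose in both and 1 had opposite signs, beside opposite signs in 34.3% of all 1880 genes called in both. In A375, 1 of 18 rose, SPP1, which encodes osteopontin (log2 5.03, adjusted p = 2.12e-05), and the median was 0.21.

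**Figure D4:**
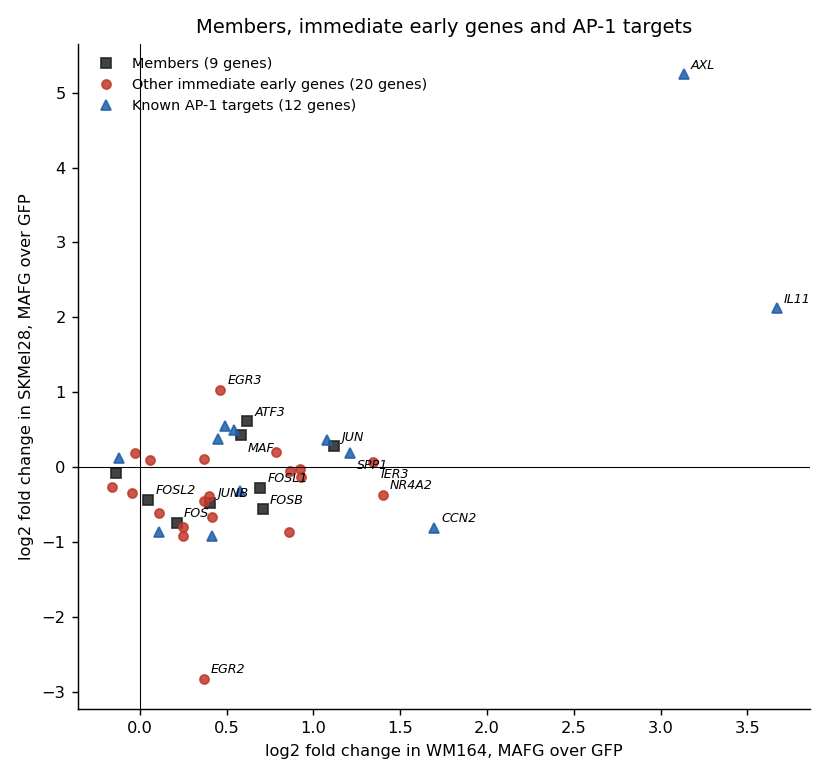
Log2 fold change with MAFG overexpression in WM164 (x axis) and SKMel28 (y axis) for the 9 members, 20 immediate early genes and the 12 AP-1 targets tested in both lines. Most immediate early genes lie to the right of 0 and below 0, with EGR1 at 0.86 and −0.87, while AXL and IL11 lie above 2 on both axes.

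Other bZIP genes and the kinases upstream of AP-1 were also followed. Of the sMAFs, MAFK and MAFF rose in WM164 beside the overexpressed MAFG (log2 0.50 and 0.32, adjusted p = 0.00512 and 0.0126), MAFF rose in SKMel28 (log2 0.23, adjusted p = 0.0130), and none passed in A375. Of the other large MAFs, MAFA rose in WM164 from a low level (log2 1.29, adjusted p = 0.0281), and 1 was tested in SKMel28 and in A375 without passing. Of 12 other partners and inhibitors of AP-1 tested, 1 rose and 4 fell in WM164, led by BATF3 (log2 1.87, adjusted p = 5.32e-04) and CREM (log2 −0.58, adjusted p = 0.00867). In SKMel28, 1 of 12 rose, ATF1 (log2 0.46, adjusted p = 0.00270), and 1 fell, BATF2 (log2 −1.73, adjusted p = 0.0359), and none passed in A375. Of the kinases upstream of AP-1, 1 rose and 1 fell of 10 in WM164, MAP3K1 (log2 0.63, adjusted p = 6.94e-08) and MAP2K2 (log2 −0.24, adjusted p = 0.00627). In SKMel28, 1 rose and 2 fell of 10, led by MAP2K2 (log2 −0.54, adjusted p = 4.90e-05) and MAPK3 (log2 −0.36, adjusted p = 0.0169), and none of 11 passed in A375. In A375, 2 of the 27 genes tested in these 4 lists had an unadjusted p under 0.05. Keratinocyte and leukocyte markers were too low to be tested, and of 2 endothelial markers tested KDR was called in WM164 alone (0, 0 and 6 counts with GFP, 13, 19 and 29 with MAFG, log2 3.15, adjusted p = 0.00820).

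The genes whose log2 CPM most resembled each member over the 18 libraries were given by Pearson's r, as a description, since the libraries fall into 6 conditions and the lines set most of the spread. For FOSL1 they were CAVIN1, a caveolar coat gene (r = 0.997), and LINC00857 (0.994). For JUN they were COL4A2, a basement membrane collagen (0.989), and LDOC1 (0.988), for FOS PRICKLE2 (0.989) and PELI2 (0.988), and for MAF TNFRSF19 (0.985) and SALL1 (0.985). JUND was most like QSOX1 and MAF1 (both 0.986), FOSL2 like SNRNP70 (0.985) and PXN (0.983), JUNB like MIDN (0.952) and SERINC2 (0.938), FOSB like TTPA (0.954) and KCTD15 (0.927), and ATF3 like NID2 (0.844) and POLR1B (0.823). Among the members themselves, JUN went with FOSL1 (r = 0.915), FOS with MAF (0.895) and JUND with FOSL2 (0.913), while JUN and FOS ran in opposite directions (−0.924).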

How the data were processed

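RNA was extracted from melanoma lines overexpressing MAFG or GFP and sequenced, with 3 libraries per condition. The authors trimmed reads with cutadapt (1.8.1 in the submitters' processing notes), aligned them to GRCh38 with STAR (2.7.7a) and used featureCounts to assign uniquely aligned reads to genes. The deposited counts are whole numbers without normalization. The authors also deposited TPM values, which have a common sum per library, and the methods name RSEM (1.3.0 in the notes) for TPM, in a sentence that may refer to other data. The labels name a non-stranded kit and the methods a strand-specific one. The annotation release and the use of strand are not given in the sources used here. All sample columns were used.

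For each line, counts of 6 libraries were compared with edgeR 4.0.16 in R 4.3.3 (TMM normalization, filterByExpr, quasi-likelihood F test, Benjamini-Hochberg adjustment over all tested genes). Levels in GFP cells and differences of the response came from a model of all 18 libraries. The standard error is the absolute log2 fold change divided by the square root of F. Gene positions were from GENCODE release 44 and promoters from RefSeq. Alternatives were DESeq2 1.42.0 or only its size factors, a filter that kept any gene with a count or asked for 10 counts in each library, a replicate block, 1 model of all 18 libraries, limma 3.58.1 on log2(TPM + 1) and log2(TPM + 0.1) for genes reaching 1 TPM in 3 libraries, and the omission of each library. edgeR was tested on simulated data. Figures were drawn with matplotlib 3.10.9.

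The members and the 10 gene lists were chosen with earlier results of these data known, and 2 genes of the lists are not reported here. ATF7 has 2 identifiers in the table, and the one with more counts was used. Named were all members, from each list the 2 called genes with the largest absolute log2 fold change in each line, and for each member the 2 genes with the highest r. Genes of the lists shown beside these (MITF, MLANA, TYR, DCT, PMEL and S100B in A375, MAFF and EGR1) were chosen after their values were seen, as was the whole sentence on the members' own correlations.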

Additional observations from a re-analysis of the deposited data

Results flagged for a closer look

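Groups of 3 libraries were too small for a search for single outlying libraries, so only differences of the response to MAFG between lines are listed, each tested in the model of all 18 libraries and given as a difference of log2 fold changes. Higher in WM164 than in SKMel28 were the responses of JUN (0.84), JUNB (0.88), FOS (0.96), FOSB (1.28), FOSL1 (0.97) and FOSL2 (0.49). Higher in WM164 than in A375 were those of JUN (1.21) and FOSL1 (0.63), and MAF was lower (−3.57). Lower in SKMel28 than in A375 were those of FOS (−1.16), FOSB (−1.06), FOSL2 (−0.49) and MAF (−3.73). The values of MAF against A375 rest on 22 counts in the A375 GFP libraries.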

How the results depend on the processing

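Of 860 values of members under an alternative, 749 kept their direction and their side of the threshold and 83 kept the direction without passing. Of the rest, 1 passed only under the alternative and 27 changed sign. All sign changes but MAF in WM164 against A375 came from members that did not pass at first. For levels in GFP cells and responses against A375, the 860 values hold only members called at first. New passes there were not counted. For WM164 against A375, DESeq2 called 4 members beside 3 in the main fit. For GFP cells of A375 against WM164, log2(TPM + 0.1) gave 7 beside 5. The cause of these shifts was not tested. The replicate numbers did not pair the libraries (correlations of deviations from −0.04 to 0.03, and 1 of 9 GFP libraries correlated best with its own number). The replicate block left 5, 7 and 1 members called in WM164, SKMel28 and A375 and changed the call of 1 value, FOSL2 in SKMel28 against A375 (adjusted p = 0.0568). With it, 64 genes of all were called in A375.

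On log2(TPM + 1) and log2(TPM + 0.1), 1918 and 1853 of all genes were called in WM164, 2575 and 2542 in SKMel28 and 19 and 15 in A375, beside 5065, 4640 and 133. On both scales 3 members were called in SKMel28 and 0 in A375, where MAF was below the filter, and 0 for SKMel28 against A375. On log2(TPM + 1), 0 members passed the fold threshold in WM164, where JUN was at 0.92, and MAF in WM164 against A375 was 0.22. On log2(TPM + 0.1), 3 members were called for WM164 against SKMel28. In A375, FOSL1 was at −0.0377 and −0.0378 and FOSL2 at −0.0758 and −0.0858, and JUND for WM164 against SKMel28 was at 0.33 and 0.36.

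With all 18 libraries in 1 model, 3022, 3038 and 506 genes and, in SKMel28, 3 members were called. In A375, 248 genes were called with DESeq2, 328 without a count filter and 84 with at least 10 counts in each library, which removed MAF and left 0 members. DESeq2 called 7 members for SKMel28 against A375. JUND in A375 was −0.0033 with DESeq2, −0.0023 with its size factors, −0.0008 without a filter and −0.015 with the replicate block, and ATF3 for WM164 against SKMel28 was −0.012 without a filter.

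With a library left out, the values ranged from −0.02 to 0.11 for FOSL2 in WM164, from −0.15 to 0.026 for JUND in SKMel28, and in A375 from −0.0885 to 0.32 for JUNB, −0.20 to 0.16 for JUND and −0.073 to 0.11 for FOSL2. For WM164 against SKMel28, JUND ranged from −0.16 to 0.0196 and ATF3 from −0.11 to 0.23. The members called ranged from 0 to 1 in A375 and from 1 to 5 for SKMel28 against A375, and all genes called in A375 from 59 (without MAFG replicate 2) to 393 (without MAFG replicate 1).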
